A study of Mus musculus with 2 samples.

Results

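Transcripts of 36 genes of lipid and cholesterol metabolism were followed in lung γδ T cells. The genes were chosen by symbol, 36 of the 32285 genes that the count tables list, and all 36 were found in both tables. They cover fatty acid synthesis, elongation and desaturation (8 genes), fatty acid uptake, binding and activation (7), mitochondrial beta oxidation (8), sterol synthesis (4), sterol regulators (3), sterol efflux and esterification (3), and triglyceride and lipid droplet genes (3).

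Both sorts came from the lungs of mice between 5 and 7 weeks old that had not been infected, and each sort gave a single droplet library. From C57BL/6NCrl mice (WT) the γδ T cells lacking Vγ1 were taken. From mice of the strain B6.Cg-Tcrgtm1lku(B6.Vg4-/-Vg6-/-), which carry deletions of Vγ4 and Vγ6 (KO-labelled), the Vγ1+ γδ T cells were taken. How many animals were pooled and their sex are not given in the labels, and the study used mice of both sexes.

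T cells take up fatty acids or make them from acetyl-CoA, burn them in mitochondria, or store them as triglyceride in lipid droplets. Cholesterol is made from acetyl-CoA by the mevalonate pathway, which the SREBP transcription factors switch on when sterols are scarce, and surplus sterol is exported or esterified. γδ T cells that make IL-17 (γδ17) are known for high lipid uptake and storage, whereas those that make interferon-γ (γδ1) are known to rely more on glycolysis. The comparisons ask how the list differs between Vγ subsets and between γδ17-type and γδ1-type cells, including the Vγ1 cells of mice without Vγ4 and Vγ6.

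Cells were grouped by the γ variable gene transcripts they held. In the WT library 520 cells had unique molecular identifiers (UMIs, each standing for 1 captured transcript) of Tcrg-V6 and of no other Tcrg variable gene, and are called Vγ6 cells here. Another 410 WT cells had only Tcrg-V4 (Vγ4 cells), and 2880 KO-labelled cells had Tcrg-V1 (KO Vγ1 cells). Of the latter only 2128 held no other Tcrg variable gene, so the rule for KO Vγ1 cells is wider than that for the WT groups. Each group was split by detection of Tmem176b, a membrane protein gene characteristic of IL-17-type lymphocytes, and of Ly6c2, a surface protein gene of γδ1 and memory T cells. Cells with Tmem176b and without Ly6c2 (Tmem176b cells) made up 449 of the Vγ6, 158 of the Vγ4 and 828 of the KO Vγ1 cells. Cells with Ly6c2 and without Tmem176b (Ly6c2 cells) numbered 6, 93 and 540, and the 6 Vγ6 cells are too few for a comparison. Neither gene was detected in 56, 149 and 1429 cells, and both in 9, 10 and 83. Sex differed between the libraries, since 387 of 520 Vγ6, 294 of 410 Vγ4 and 2865 of 2880 KO Vγ1 cells held no UMI of the Y-linked genes examined.

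The targeted genes were examined first. Tcrg-V6 had 2906 UMIs in WT and 0 UMIs in 6634 KO-labelled cells, which allows a share of up to 0.0452% of cells. Tcrg-V4 had 715 UMIs in WT (79.7 CPM, 21.4% of cells). Against the label it had 1291 UMIs (49.8 CPM, 14.9% of cells) in the deeper library labelled KO, where 364 cells (5.49%) also passed the only-Tcrg-V4 rule, against 16.4% of WT cells. That library is therefore called KO-labelled, and every direction below rests on its label. It held 6688 barcodes and 26436826 UMIs against 2520 barcodes and 9173997 UMIs in WT, 23 barcodes occurred in both, and the median depth of the 3 groups lay between 3427 and 4186 UMIs per cell. The split was set beside 10 γδ17 genes (Maf, Il23r, Blk and others). They summed to 2136 CPM in Vγ4 Tmem176b cells and 50.2 in Vγ4 Ly6c2 cells, and to 1554 and 175 in KO Vγ1 cells. Tmem176a is among them and its exons overlap those of Tmem176b, so the split itself could give part of this difference. No sum without Tmem176a was made. The 8 γδ1 genes (Tbx21, Ifng, Cd27 and others) went the other way, with 1241 and 9140 CPM in Vγ4 and 1488 and 6578 in KO Vγ1 cells. Myeloid genes (12, Lyz2, Chil3, Mrc1 and others) summed to 162 CPM in Vγ4 Tmem176b and 1044 in Vγ4 Ly6c2 cells. In KO Vγ1 cells they summed to 224 and 146 CPM. Vγ4 Ly6c2 cells thus held more myeloid transcripts, whose part in the Vγ4 split was not tested.

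Levels are UMIs per 1000000 UMIs, both summed over all cells of a group (CPM). They are shares of the group's transcripts, are not scaled by gene length and are compared between groups, not between genes. Each group is a single library, so nothing could be tested: cells sharing a library are not replicates, and genotype, strain, sort, sex and library cannot be told apart between WT and KO-labelled cells. The 95% intervals, in parentheses, cover counting error only. A member is called higher or lower where the 2 sums held at least 30 UMIs together and the log2 ratio reached 0.5. The share of all genes passing the same limits is given beside each count made with these limits and cells.

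The 36 genes together took 2179 CPM (2114 to 2245) in Vγ6 cells, 1850.0 CPM (1784 to 1918) in Vγ4 cells and 1914 CPM (1890 to 1937) in KO Vγ1 cells. The list was thus highest in Vγ6 cells, at a log2 ratio of -0.24 (-0.30 to -0.17) for Vγ4 and -0.19 (-0.23 to -0.14) for KO Vγ1 cells over them, and the latter groups were within counting error of each other at 0.05 (-0.01 to 0.10). Within Vγ4 and KO Vγ1 cells the sum was lowest in Ly6c2 cells. It was 2158 CPM in KO Vγ1 Tmem176b cells and 1671 in KO Vγ1 Ly6c2 cells, a log2 ratio of 0.37 (0.32 to 0.42). In Vγ4 cells it was 1989 and 1507, a log2 ratio of 0.40 (0.26 to 0.54). Cells with neither gene stood at 1871 CPM in KO Vγ1, 2024 in Vγ4 and, highest of all, 2679 (2422 to 2955) in Vγ6 cells. Tmem176b cells of the KO Vγ1 and Vγ6 groups held 2158 and 2160 CPM, a log2 ratio of -0.00 (-0.06 to 0.05).

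**Figure D1:**
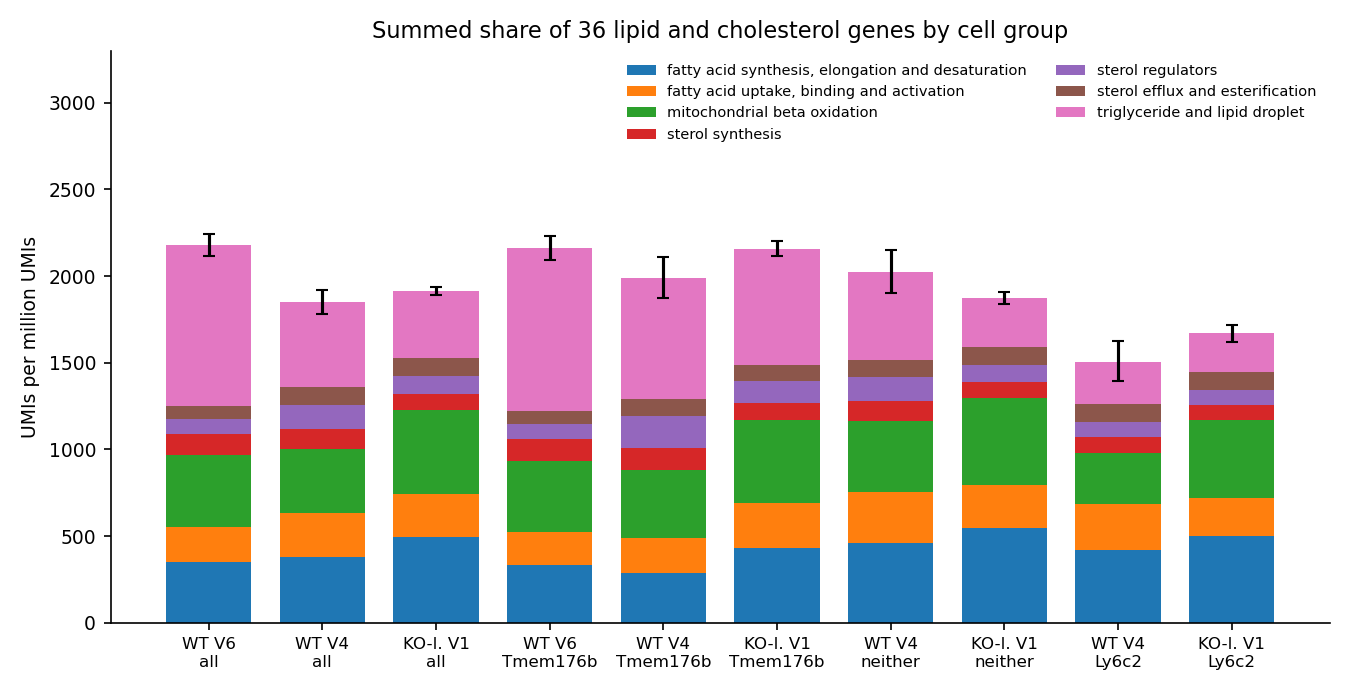
Stacked bars of the summed level of the 36 genes in CPM, by role group, for all cells and for cells split by Tmem176b and Ly6c2 detection; V6 and V4 are WT cells with only that Tcrg-V gene, KO-l. V1 is the KO-labelled cells with Tcrg-V1, and error bars are 95% Poisson intervals of the total. The triglyceride and lipid droplet layer is 931 in V6 cells and 225 in KO-labelled Ly6c2 cells, while the other layers vary less.

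The role groups contributed unequally to these sums. The triglyceride and lipid droplet group, Dgat1, Plin2 and Plin3, gave 42.7% of the list's UMIs in Vγ6 cells, 26.6% in Vγ4 cells and 20.3% in KO Vγ1 cells. Fatty acid synthesis, elongation and desaturation gave 16.1%, 20.6% and 26.0%, and mitochondrial beta oxidation 19.1%, 20.1% and 25.2%. Such shares of the list can rise because another group falls. Beta oxidation was at 415 CPM in Vγ6 and 372 in Vγ4 cells although its share rose. The 4 sterol synthesis genes gave 5.63%, 6.21% and 4.90%. Dgat1 alone carried most of the difference in the sum, as a leave-out chosen after its values were seen shows. Without it the other 35 genes stood at 1466 CPM in Vγ6, 1465 in Vγ4 and 1646 in KO Vγ1 cells, so that the Vγ4 over Vγ6 ratio became -0.00 (-0.08 to 0.08) and the KO Vγ1 over Vγ6 ratio turned to 0.17 (0.11 to 0.22).

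Dgat1 (ENSMUSG00000022555, chromosome 15 of GRCm38, 76502015 to 76511953, minus strand) encodes the endoplasmic reticulum enzyme that makes triglyceride from diacylglycerol and fatty acyl-CoA. Its level was 713 CPM (676 to 751) in Vγ6 cells, 385 CPM (355 to 416) in Vγ4 cells and 267 CPM (259 to 276) in KO Vγ1 cells. The 3 intervals did not overlap, and the log2 ratios were -0.89 (-1.03 to -0.75) for Vγ4 over Vγ6, -1.42 (-1.50 to -1.33) for KO Vγ1 over Vγ6 and -0.53 (-0.65 to -0.40) for KO Vγ1 over Vγ4. The last became -0.36 where at least 2 UMIs of the Tcrg-V gene were asked of each cell, and -0.45 without cells that held a Y-linked UMI. The rule of at least 2 UMIs left 409 of 520 Vγ6, 99 of 410 Vγ4 and 1334 of 2880 KO Vγ1 cells. After every cell was thinned to 2000 UMIs, 62.7% of Vγ6 cells (58.2 to 67.1), 46.0% of Vγ4 cells (40.9 to 51.1) and 34.9% of KO Vγ1 cells (33.1 to 36.7) had a Dgat1 UMI, and unthinned 79.0%, 65.4% and 54.5% did. Cells with myeloid or B cell markers stood at 26.4% of 87 WT and 22.7% of 75 KO-labelled cells after thinning.

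The Dgat1 level followed the Tmem176b split in both libraries. It was 518 CPM in Vγ4 Tmem176b cells and 178 in Vγ4 Ly6c2 cells, a log2 ratio of 1.54 (1.18 to 1.92). In KO Vγ1 cells it was 453 and 150.4, a log2 ratio of 1.59 (1.43 to 1.75). Cells with neither gene lay between, at 434 CPM in Vγ4 and 201 in KO Vγ1 cells. In Vγ6 cells it was 712 CPM (673 to 753) in Tmem176b cells and 859 CPM (717 to 1022) in those with neither gene, with overlapping intervals. Among Tmem176b cells alone the order of the groups stayed, Vγ6 above Vγ4 above KO Vγ1, but the steps were smaller, at -0.65 (-0.76 to -0.55) for KO Vγ1 over Vγ6 and -0.20 (-0.37 to -0.01) for KO Vγ1 over Vγ4.

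Because detection of Tmem176b depends on depth, Dgat1 was also read by the number of Tmem176b UMIs in cells thinned to 2000 UMIs. In KO Vγ1 cells it was 197 CPM with 0 Tmem176b UMIs, 419.7 with 1, 508 with 2 and 524 with 3 or more. Vγ4 cells gave 362, 487, 565 and 375 CPM, the last over 16 cells only, and Vγ6 cells 657, 668, 644 and 790.2. The KO Vγ1 series thus separated cells with none from cells with any, and Vγ6 cells with no Tmem176b UMI stood above KO Vγ1 cells with 3 or more.

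**Figure D2:**
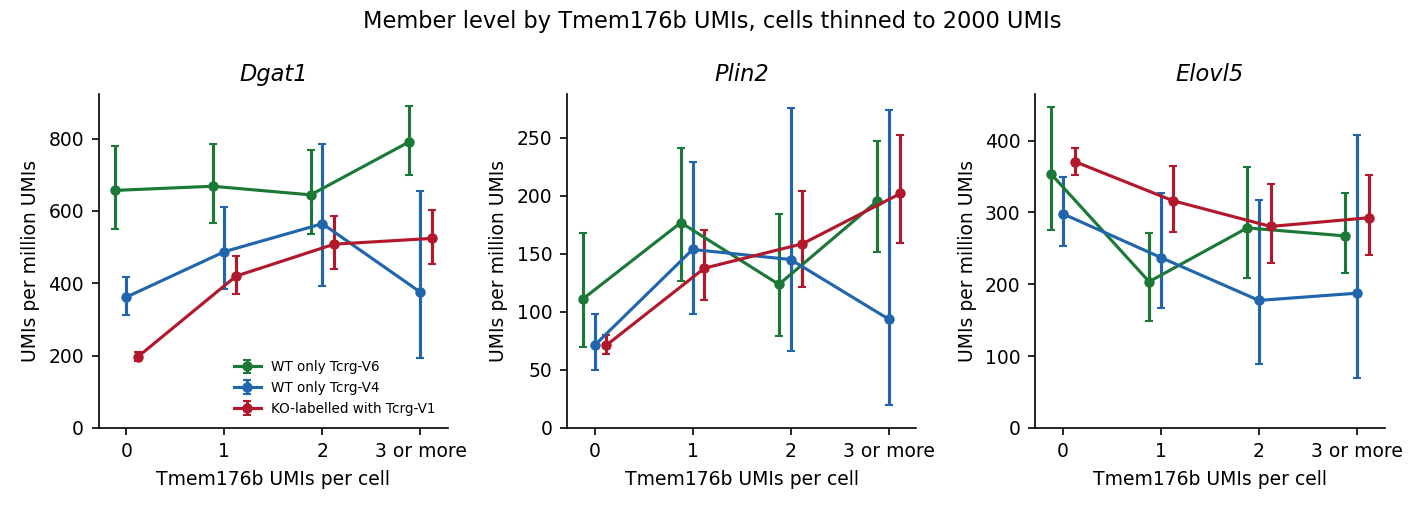
Level of Dgat1, Plin2 and Elovl5 (vertical axes, CPM) against the number of Tmem176b UMIs in cells thinned to 2000 UMIs (horizontal axes); points are sums over cells and bars 95% Poisson intervals. Dgat1 goes from 197 to 524 in KO-labelled Tcrg-V1 cells and stays between 644 and 790.2 in WT Tcrg-V6 cells.

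Plin2 (chromosome 4, 86648386 to 86670060, minus strand) encodes perilipin 2, a protein that coats lipid droplets and is used as their marker, and Plin3 (chromosome 17, 56277476 to 56292873, minus strand) perilipin 3, which coats nascent droplets. The promoter of Plin2, the more abundant of the pair, is shown because both perilipins, like Dgat1, were highest in Vγ6 cells and higher in Tmem176b than in Ly6c2 cells. It is chr4:86670010-86670309 of GRCm38.p6 from RefSeq, 250 bases before to 50 after the start site, written 5′ to 3′ on the minus strand, and capitals mark a CCAAT box.
Plin2: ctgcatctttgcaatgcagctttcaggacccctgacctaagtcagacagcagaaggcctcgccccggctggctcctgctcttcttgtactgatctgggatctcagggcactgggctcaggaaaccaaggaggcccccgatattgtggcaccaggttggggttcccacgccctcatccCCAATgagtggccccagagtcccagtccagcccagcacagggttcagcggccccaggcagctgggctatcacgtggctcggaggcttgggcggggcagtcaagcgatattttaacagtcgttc

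Plin2 was at 159 CPM in Vγ6, 84.0 in Vγ4 and 94.0 in KO Vγ1 cells. The log2 ratios were -0.92 (-1.22 to -0.62) for Vγ4 and -0.76 (-0.94 to -0.58) for KO Vγ1 over Vγ6. Tmem176b cells held 124 CPM in Vγ4 and 169 in KO Vγ1, against 59.4 and 62.5 in Ly6c2 cells, so that the log2 ratios were 1.07 (0.40 to 1.77) and 1.43 (1.19 to 1.68). Unlike Dgat1, Plin2 had the same level, 169 CPM, in Tmem176b cells of the Vγ6 and KO Vγ1 groups, a log2 ratio of 0.00 (-0.20 to 0.20). The highest Plin2 values of all were in cells with myeloid or B cell markers, at 337 CPM in 104 WT and 258 CPM in 88 KO-labelled cells.

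Plin3 had fewer UMIs than Plin2 and the same order of groups, with 59.1 CPM in Vγ6, 23.4 in Vγ4 and 27.3 in KO Vγ1 cells. Tmem176b cells of the 3 groups lay within the fold of each other at 60.7, 53.3 and 51.1 CPM, whereas Ly6c2 cells had 6.85 CPM in Vγ4 (3 UMIs) and 11.9 in KO Vγ1. The log2 ratio of Tmem176b over Ly6c2 cells was 2.10 (1.56 to 2.69) in KO Vγ1 and 2.96 (1.27 to 5.32) in Vγ4 cells, where it rests on those 3 UMIs. All 3 members of the group were therefore past the fold in both splits and between Vγ4 or KO Vγ1 and Vγ6 cells, and within Tmem176b cells only Dgat1 was, against Vγ6.

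**Figure D3:**
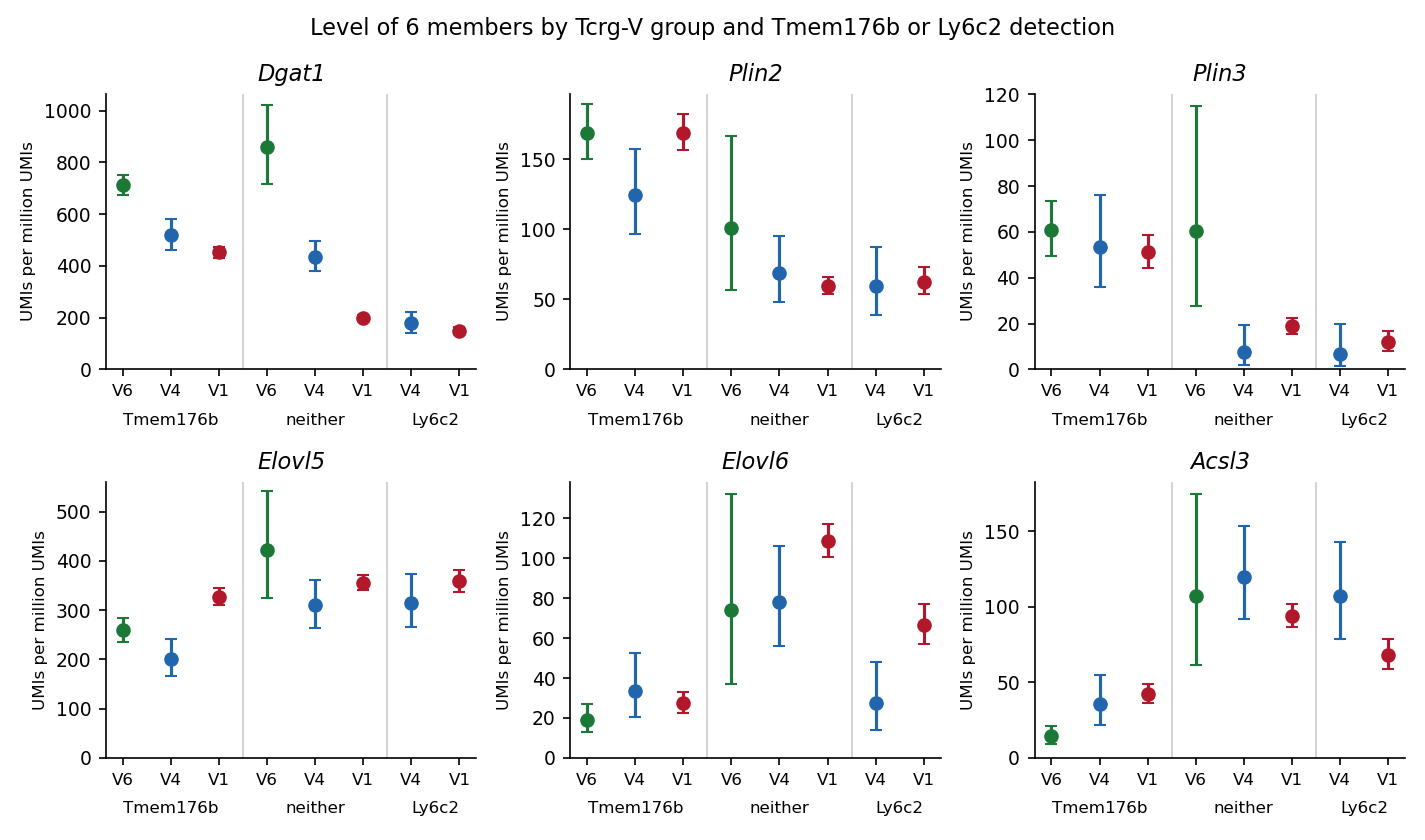
Level of 6 members (vertical axes, CPM, each starting at 0) in cells with Tmem176b only, with neither gene and with Ly6c2 only, for WT Tcrg-V6 (V6), WT Tcrg-V4 (V4) and KO-labelled Tcrg-V1 (V1) cells; bars are 95% Poisson intervals. Dgat1, Plin2 and Plin3 are high in Tmem176b cells and low in Ly6c2 cells, whereas Acsl3 is 14.4, 35.5 and 42.2 in Tmem176b cells and 107 and 68.1 in Ly6c2 cells.

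Fatty acid synthesis and elongation genes gave a different picture. Elovl5, which elongates polyunsaturated fatty acids and gave 17.4% of all UMIs of the list, was at 275 CPM (252 to 299) in Vγ6, 267 (242 to 293) in Vγ4 and 346 (336 to 356) in KO Vγ1 cells. Between the 3 groups it stayed under the fold. It passed it in Vγ4 cells, with 201 CPM in Tmem176b cells and 315 in Ly6c2 cells, a log2 ratio of -0.65 (-1.02 to -0.28). Among Tmem176b cells KO Vγ1, at 327 CPM, lay above Vγ4 by 0.71 (0.43 to 1.0). Leaving out cells with markers of other cell types (at least 2 UMIs) kept 123 of 158 Tmem176b and 58 of 93 Ly6c2 cells of Vγ4. It moved the ratio in the Vγ4 split to -0.27, and thinning moved that among Tmem176b cells to 0.47.

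Elovl6, which elongates saturated and monounsaturated fatty acids, was at 22.2 CPM in Vγ6, 49.3 in Vγ4 and 73.0 in KO Vγ1 cells, the reverse of the Dgat1 order. The log2 ratios were 1.15 (0.60 to 1.72) for Vγ4 over Vγ6, 1.72 (1.28 to 2.19) for KO Vγ1 over Vγ6 and 0.57 (0.23 to 0.92) for KO Vγ1 over Vγ4, the last at 0.39 with at least 2 Tcrg-V UMIs per cell. The highest levels were in cells with neither Tmem176b nor Ly6c2, at 73.8 CPM in Vγ6, 78.1 in Vγ4 and 109 in KO Vγ1 cells. KO Vγ1 Tmem176b cells stood at 27.4 and Ly6c2 cells at 66.6, a log2 ratio of -1.28 (-1.64 to -0.93), but in Vγ4 cells the split gave 33.7 and 27.4 CPM, a log2 ratio of 0.30 (-0.82 to 1.48). Among Tmem176b cells KO Vγ1 over Vγ6 was 0.52 (-0.05 to 1.13), and 0.07 without cells that held markers of other cell types. Exons of Elovl6 overlap those of Gm35986 on the other strand, and no source used here says whether counting used strand.

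The remaining genes of the group were sparse. Fasn, the fatty acid synthase, was at 27.8, 30.9 and 41.3 CPM in Vγ6, Vγ4 and KO Vγ1 cells, a log2 ratio of 0.57 (0.17 to 1.0) for KO Vγ1 over Vγ6 that became 0.39 on thinned cells. In Vγ4 cells it was lower in Tmem176b than in Ly6c2 cells by fold, at 26.6 and 38.8 CPM, with an interval that spanned 0 (-1.65 to 0.55). Scd2, a stearoyl-CoA desaturase, had 5 UMIs in Vγ6, 23 in Vγ4 and 147 in KO Vγ1 cells, or 2.53, 14.5 and 10.9 CPM. Its KO Vγ1 over Vγ6 ratio was 2.10 (0.85 to 3.75), and in Tmem176b cells, where Vγ6 held only 2 UMIs, 2.90 (0.94 to 6.00). Against Vγ4 the ratio in Tmem176b cells was 0.70 (-0.97 to 3.04). Reads of Scd2 can be confused with those of the near-copy Scd1.

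Fads1, the delta-5 desaturase of polyunsaturated fatty acids, was at 7.07, 5.68 and 10.6 CPM in Vγ6, Vγ4 and KO Vγ1 cells. In KO Vγ1 cells it was 15.5 CPM in Tmem176b and 7.07 in Ly6c2 cells, a log2 ratio of 1.14 (0.38 to 1.96). Over Vγ6 and Vγ4 its KO Vγ1 ratios were 0.59 and 0.90 in all cells and 1.29 (0.35 to 2.36) and 1.55 (-0.07 to 3.86) in Tmem176b cells, and those of all cells were below the fold under some alternatives, at 0.22 and 0.35 at the lowest. Acaca, the acetyl-CoA carboxylase that commits acetyl-CoA to fatty acid synthesis, stayed between 11.4 and 20.1 CPM in every group compared and passed the fold in no comparison. Scd1 and Fads2 never reached the minimum, with at most 6 UMIs in a Vγ group.

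Fatty acid activation also divided by gene. Acsl3, a long-chain acyl-CoA synthetase of the endoplasmic reticulum and lipid droplets, was at 23.2 CPM in Vγ6, 87.2 in Vγ4 and 72.0 in KO Vγ1 cells. The log2 ratios over Vγ6 were 1.91 (1.42 to 2.42) for Vγ4 and 1.63 (1.21 to 2.09) for KO Vγ1 cells. It was lower in Tmem176b than in Ly6c2 cells, at 35.5 and 107 CPM in Vγ4 and 42.2 and 68.1 in KO Vγ1 cells, with log2 ratios of -1.60 (-2.43 to -0.81) and -0.69 (-1.0 to -0.38). The latter was -0.39 where at least 2 Tcrg-V1 UMIs were asked of each cell. Even among Tmem176b cells, KO Vγ1 exceeded Vγ6, at 14.4 CPM, by 1.55 (0.94 to 2.21). Its exons overlap those of Utp14b on the same strand, so part of its UMIs could belong to that gene.

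Acsl4, the synthetase that favours arachidonic acid, was at 97.0, 75.8 and 73.1 CPM in Vγ6, Vγ4 and KO Vγ1 cells. In contrast to Acsl3 it was higher in Tmem176b cells, at 92.3 against 43.4 CPM in Vγ4 and 91.1 against 54.7 in KO Vγ1 cells, log2 ratios of 1.09 (0.31 to 1.93) and 0.73 (0.45 to 1.02). Tmem176b cells of the 3 groups held like levels, between 91.1 and 96.5 CPM. Acsl1, a synthetase for fatty acid storage and oxidation, was at 14.6 CPM in Vγ6 and 9.90 in KO Vγ1 cells, -0.57 with an interval of -1.15 to 0.07. Acsl5, a mitochondrial and reticular synthetase, passed the fold once, at 41.0 CPM in KO Vγ1 and 21.3 in Vγ4 Tmem176b cells, 0.94 (0.10 to 1.92).

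Fabp5, the fatty acid binding protein of epidermis and lymphocytes, was at 34.8 CPM in Vγ6, 44.8 in Vγ4 and 53.4 in KO Vγ1 cells. The KO Vγ1 over Vγ6 ratio was 0.62 (0.26 to 0.99). KO Vγ1 Tmem176b cells held the highest level, 70.8 CPM, above Vγ6 Tmem176b cells at 34.7 by 1.03 (0.63 to 1.46) and above Vγ4 Tmem176b cells at 37.3 by 0.93 (0.29 to 1.64). Within KO Vγ1 cells it was higher in Tmem176b than in Ly6c2 cells, by 0.62 (0.31 to 0.93), whereas in Vγ4 cells the ratio was -0.73 with an interval that reached above 0 (-1.62 to 0.15). The KO Vγ1 over Vγ6 ratio was 0.42 without cells holding markers of other cell types, and the KO Vγ1 split 0.40 with at least 2 Tcrg-V1 UMIs per cell. Fabp4, a fatty acid binding protein of adipocytes and macrophages, and Lpl, the lipoprotein lipase, had at most 2 UMIs in a Vγ group, against 30.04 to 68.1 CPM in cells with myeloid or B cell markers.

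Beta oxidation genes stayed under the fold as a group, although single genes passed it in both directions. The 8 genes together took 415 CPM in Vγ6, 372 in Vγ4 and 483 in KO Vγ1 cells, and the log2 ratios of the group lay between -0.16 and 0.40 in all 7 comparisons. Hadha and Hadhb encode the alpha and beta subunits of the mitochondrial trifunctional protein and gave the most UMIs of the group. Hadha was at 75.2, 80.2 and 98.5 CPM and Hadhb at 107, 87.8 and 115 CPM in Vγ6, Vγ4 and KO Vγ1 cells, and neither passed the fold in any comparison. Acadm, the medium-chain acyl-CoA dehydrogenase, stayed between 29.7 and 46.3 CPM and passed in none.

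Acat1, the mitochondrial acetyl-CoA acetyltransferase, was at 93.9, 66.3 and 76.0 CPM in Vγ6, Vγ4 and KO Vγ1 cells. It was higher in Tmem176b than in Ly6c2 cells in both libraries, with 85.2 against 38.8 CPM in Vγ4 (1.13, 0.31 to 2.03) and 101 against 58.1 in KO Vγ1 cells (0.80, 0.53 to 1.07). Acadvl, the very-long-chain dehydrogenase, was lower in Vγ4 cells, at 18.9 CPM, than in Vγ6 cells at 33.3 (-0.81, -1.49 to -0.17) and KO Vγ1 cells at 37.6. It was higher in Tmem176b than in Ly6c2 cells of the KO Vγ1 group, at 47.4 and 31.3 CPM, and in KO Vγ1 Tmem176b cells than in those of Vγ6 (0.52, 0.09 to 0.98) and of Vγ4, the latter with an interval of -0.07 to 1.46. The Vγ4 over Vγ6 ratio was -0.38 with at least 2 Tcrg-V UMIs per cell, and the ratio over Vγ6 Tmem176b cells 0.23 after thinning. The KO Vγ1 split, 0.60 (0.22 to 0.99), was 0.49 with at least 2 Tcrg-V1 UMIs. Exons of Acadvl overlap those of Dvl2 on the other strand.

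Acadl, the long-chain dehydrogenase, showed the opposite split. It was at 46.4 CPM in Tmem176b and 76.7 in Ly6c2 cells of the KO Vγ1 group, a log2 ratio of -0.73 (-1.02 to -0.43), and KO Vγ1 cells as a whole exceeded Vγ6 cells, at 72.3 and 47.0 CPM, by 0.62 (0.31 to 0.94). Cpt1a, the outer membrane carnitine palmitoyltransferase that limits entry of fatty acids into mitochondria, was at 23.2, 30.3 and 34.1 CPM, a KO Vγ1 over Vγ6 ratio of 0.55 (0.11 to 1.02), and in Tmem176b cells 31.1 in KO Vγ1 against 16.0 in Vγ4 (0.96, -0.01 to 2.12). After thinning the KO Vγ1 over Vγ6 ratio of Cpt1a was 0.03. Cpt2, its inner membrane partner, had 4, 5 and 94 UMIs, and its KO Vγ1 ratios were 1.78 (0.38 to 3.69) over Vγ6, 1.14 (-0.14 to 2.79) over Vγ4 and -0.87 (-1.83 to 0.07) in the split.

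Sterol synthesis was read from 4 enzymes of the pathway from acetyl-CoA to cholesterol. Idi1, the isopentenyl diphosphate isomerase of the mevalonate pathway, was lower in KO Vγ1 cells than in either WT group, also within Tmem176b cells. It was at 53.5 CPM in Vγ6 and 44.2 in Vγ4 cells, and at 19.4 in KO Vγ1 cells, log2 ratios of -1.47 (-1.80 to -1.13) and -1.19 (-1.58 to -0.79). Among Tmem176b cells the levels were 57.2, 58.6 and 25.9 CPM and the ratios -1.14 (-1.55 to -0.73) and -1.18 (-1.75 to -0.57). Within each library Idi1 was also higher in Tmem176b than in Ly6c2 cells, at 58.6 and 25.1 CPM in Vγ4 (1.22, 0.20 to 2.36) and 25.9 and 17.9 in KO Vγ1 cells (0.54, 0.03 to 1.06), the latter at 0.46 with ribosomal, mitochondrial and T cell receptor genes out of the total. Its exons overlap those of Gm48574 on the other strand.

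The other 3 enzymes did not share this pattern. Hmgcs1, the cytosolic HMG-CoA synthase, was even at 40.9, 35.4 and 42.8 CPM in Vγ6, Vγ4 and KO Vγ1 cells and passed the fold in no comparison, as did Acat2, the cytosolic acetyl-CoA acetyltransferase, at 22.2, 27.8 and 26.9 CPM. Sqle, the squalene epoxidase, had 12, 12 and 64 UMIs, or 6.06, 7.58 and 4.73 CPM. It was higher in Tmem176b than in Ly6c2 cells of the KO Vγ1 group (1.14, 0.03 to 2.40, on 30 and 9 UMIs), and its other ratios past the fold, -0.68 for KO Vγ1 over Vγ4 and 0.51 for KO Vγ1 over Vγ6 Tmem176b cells, had intervals spanning 0.

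The promoters of 2 sterol enzymes and of Insig1 are shown to set 2 genes that were lower in KO Vγ1 than in Vγ4 cells, Idi1 and Insig1, beside one that passed the fold nowhere, Hmgcs1. The sequences are from RefSeq on GRCm38.p6, 250 bases before to 50 after the start site, written 5′ to 3′ on the plus strand, at chr13:8885356-8885655 (Idi1), chr13:119690101-119690400 (Hmgcs1) and chr5:28071162-28071461 (Insig1). Capitals mark CCAAT boxes (CCAAT, or ATTGG on the other strand) and, in Hmgcs1, the sterol regulatory element TCACCCCAC.
Idi1: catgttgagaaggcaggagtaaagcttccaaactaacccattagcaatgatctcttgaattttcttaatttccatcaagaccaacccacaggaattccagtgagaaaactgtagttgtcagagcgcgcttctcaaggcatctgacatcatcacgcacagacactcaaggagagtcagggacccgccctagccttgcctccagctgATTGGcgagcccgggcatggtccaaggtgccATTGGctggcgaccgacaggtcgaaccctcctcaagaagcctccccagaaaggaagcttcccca
Hmgcs1: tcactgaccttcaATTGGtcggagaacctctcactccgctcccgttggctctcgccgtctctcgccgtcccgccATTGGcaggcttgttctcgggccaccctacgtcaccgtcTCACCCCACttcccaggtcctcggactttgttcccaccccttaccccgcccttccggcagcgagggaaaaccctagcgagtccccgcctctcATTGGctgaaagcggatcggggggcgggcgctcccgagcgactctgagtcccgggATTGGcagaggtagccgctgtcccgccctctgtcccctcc
Insig1: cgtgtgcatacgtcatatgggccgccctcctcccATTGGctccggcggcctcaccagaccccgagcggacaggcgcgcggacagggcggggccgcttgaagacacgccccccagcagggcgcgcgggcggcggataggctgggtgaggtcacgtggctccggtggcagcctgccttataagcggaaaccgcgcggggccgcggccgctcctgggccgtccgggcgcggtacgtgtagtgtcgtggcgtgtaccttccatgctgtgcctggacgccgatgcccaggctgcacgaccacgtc

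Promoter sequences were found for 26 of the 36 genes, Dgat1 not among them. The motif TCACNCCAC, searched on both strands, occurred in 1 of these 26 promoters, Hmgcs1, where it began 137 bases before the start site, and in 1.24% of 32851 promoters of the same length. CCAAT occurred in 13 of 26 members (50%) and 37.4% of all promoters, and AGGTCA, the half-site of nuclear receptors, in 7 of 26 (26.9%) and 16.3%. Each member counts by its entry nearest the annotated start, whereas the background counts every entry. That entry lay 65766 bases from the annotated start for Acaca, 2362 for Plin3, 1431 for Acsl5 and 967 for Cpt1a. These are matches of letters in a window of 300 bases and say nothing about binding in these cells.

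Sterol regulators as a group were highest in Vγ4 cells, at 139.6 CPM against 85.9 in Vγ6 and 105 in KO Vγ1 cells. Insig1 encodes a membrane protein that retains SREBP in the endoplasmic reticulum and is itself induced by it. Its level was 36.4 CPM in Vγ6, 53.7 in Vγ4 and 32.1 in KO Vγ1 cells, 0.56 (0.09 to 1.04) for Vγ4 over Vγ6 and -0.74 (-1.08 to -0.39) for KO Vγ1 over Vγ4. Tmem176b cells stood at 37.6, 76.3 and 44.9 CPM, and KO Vγ1 over Vγ4 was -0.77 (-1.25 to -0.25) there. In both libraries Tmem176b cells exceeded Ly6c2 cells, which held 34.3 CPM in Vγ4 and 27.5 in KO Vγ1 cells, by 1.16 (0.28 to 2.11) and 0.71 (0.31 to 1.12). With at least 2 Tcrg-V UMIs per cell the ratios were 0.11 for Vγ4 over Vγ6 and -0.46 for KO Vγ1 over Vγ4, and after thinning that of Tmem176b cells was -0.48. The KO Vγ1 split was 0.48 without the 5% of deepest cells.

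Srebf2 encodes SREBP2, the main activator of cholesterol synthesis. It was at 40.9, 73.3 and 55.1 CPM in Vγ6, Vγ4 and KO Vγ1 cells, with 0.84 (0.42 to 1.27) for Vγ4 over Vγ6. Tmem176b cells stood at 39.9, 95.9 and 61.0 CPM, so that KO Vγ1 lay above Vγ6 by 0.61 (0.22 to 1.02) and below Vγ4 at -0.65 (-1.08 to -0.20), the latter -0.495 without cells that held a Y-linked UMI. In Vγ4 cells the split was 1.22 (0.43 to 2.08), and 0.47 when cells were thinned to equal depth. Srebf1 encodes SREBP1, which activates fatty acid synthesis genes. It was at 8.59, 12.6 and 18.3 CPM, and KO Vγ1 exceeded Vγ6 by 1.09 (0.39 to 1.90) in all cells and by 1.23 (0.40 to 2.17) in Tmem176b cells, with exons that overlap Rai1 on the other strand. Its ratios of 0.56 for Vγ4 over Vγ6 and 0.54 for KO Vγ1 over Vγ4 had intervals spanning 0.

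The genes that remove free sterol divided by route. Abca1 and Abcg1 encode the transporters that export cholesterol to lipoproteins, and Soat1 the enzyme that esterifies it for storage in droplets. Abcg1 was at 20.7 CPM in Vγ6, 34.7 in Vγ4 and 35.8 in KO Vγ1 cells, 0.75 (0.14 to 1.37) and 0.79 (0.33 to 1.29) over Vγ6. Ly6c2 cells had 54.8 CPM in Vγ4 and 49.1 in KO Vγ1, against 14.2 and 20.2 in Tmem176b cells, log2 ratios of -1.95 (-3.31 to -0.75) and -1.28 (-1.70 to -0.87). Abca1 was at 3.54, 10.7 and 13.0 CPM, 1.88 (0.81 to 3.21) for KO Vγ1 over Vγ6, and its split in KO Vγ1 cells was 7.40 against 19.7 CPM, -1.41 (-2.11 to -0.74). In Tmem176b cells Abca1 was 2.09 (0.41 to 4.45) higher in KO Vγ1 than in Vγ6, which held 3 UMIs, and the Abcg1 ratio over Vγ4 was 0.51 (-0.54 to 1.77).

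Soat1 went the opposite way. Tmem176b cells held 79.9 CPM in Vγ4 and 66.1 in KO Vγ1 against 38.8 and 32.4 in Ly6c2 cells, log2 ratios of 1.04 (0.21 to 1.94) and 1.03 (0.68 to 1.40), while the 3 Vγ groups as a whole were even at 49.5, 53.7 and 51.0 CPM. Of the transporters, Abcg1 also stood at 112 CPM in WT and 100.1 in KO-labelled cells with myeloid or B cell markers. The 12 myeloid genes examined (Lyz2, Chil3, Mrc1 and others) summed to 1044 CPM in Vγ4 Ly6c2 cells and 162 in Vγ4 Tmem176b cells, and to 146 and 224 in KO Vγ1 cells, with 2 to 9 of the 12 at 0, Krt79 and S100a8 in all of these. Leaving out cells with markers of other cell types moved the Abcg1 ratio of Vγ4 over Vγ6 from 0.75 to -0.041 and that of the KO Vγ1 split from -1.28 to -0.79. It kept 302 of 520 Vγ6, 288 of 410 Vγ4 and 1820 of 2880 KO Vγ1 cells. The Abcg1 ratio of the Vγ4 split under this alternative is not reported here, and the part of myeloid transcripts in it was not tested.

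The members were then counted in the splits by Tmem176b and Ly6c2. In KO Vγ1 cells 32 of the 36 members reached the minimum, 12 were higher and 6 lower in Tmem176b cells, or 37.5% and 18.8% of those, against 16.4% and 15.4% of all genes. In Vγ4 cells 21 reached it, 9 were higher and 5 lower (42.9% and 23.8%), against 22.2% and 16.7% of all genes. These 14 calls came to 4 with at least 2 Tcrg-V4 UMIs per cell, 5 after thinning and 2 with at least 100 UMIs asked of a gene. The share of all genes under these alternatives was not computed. With at least 2 Tcrg-V4 UMIs asked, 42 of 158 Tmem176b and 25 of 93 Ly6c2 cells were left, which can leave fewer members to count. Acsl4, Acat1, Idi1, Insig1, Soat1, Dgat1, Plin2 and Plin3 were higher and Acsl3 and Abcg1 lower in both as reported, with Idi1, Insig1 and Acsl3 under the fold in the KO Vγ1 split in the alternatives given above. Abcg1 was also high in cells with myeloid or B cell markers. Myeloid genes stood at 1044 CPM in Vγ4 Ly6c2 and 162 in Vγ4 Tmem176b cells, and their part in its Vγ4 call was not tested. The median log2 ratio of the members that reached the minimum was 0.19 in KO Vγ1 and 0.33 in Vγ4 cells, against -0.02 and 0.04 over all genes. Each split lies within a single library, and other programs differed along with it. Stress genes (9, Fos, Jun, Hspa1a and others) were at 7528 CPM in Vγ4 Tmem176b and 2751 in Ly6c2 cells, and at 4977 and 2825 in KO Vγ1 cells, cell cycle genes (10) at 57.7 and 129.9 in the latter. The 5 αβ T cell genes (Trac, Trbc1, Trbc2, Cd4 and Cd8b1) were lower in Tmem176b than in Ly6c2 cells, at 723 and 986 CPM in Vγ4 and 738 and 1193 in KO Vγ1 cells, with Cd4 at 0 in both Vγ4 sums. The part of these programs in the members' differences was not tested.

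**Figure D4:**
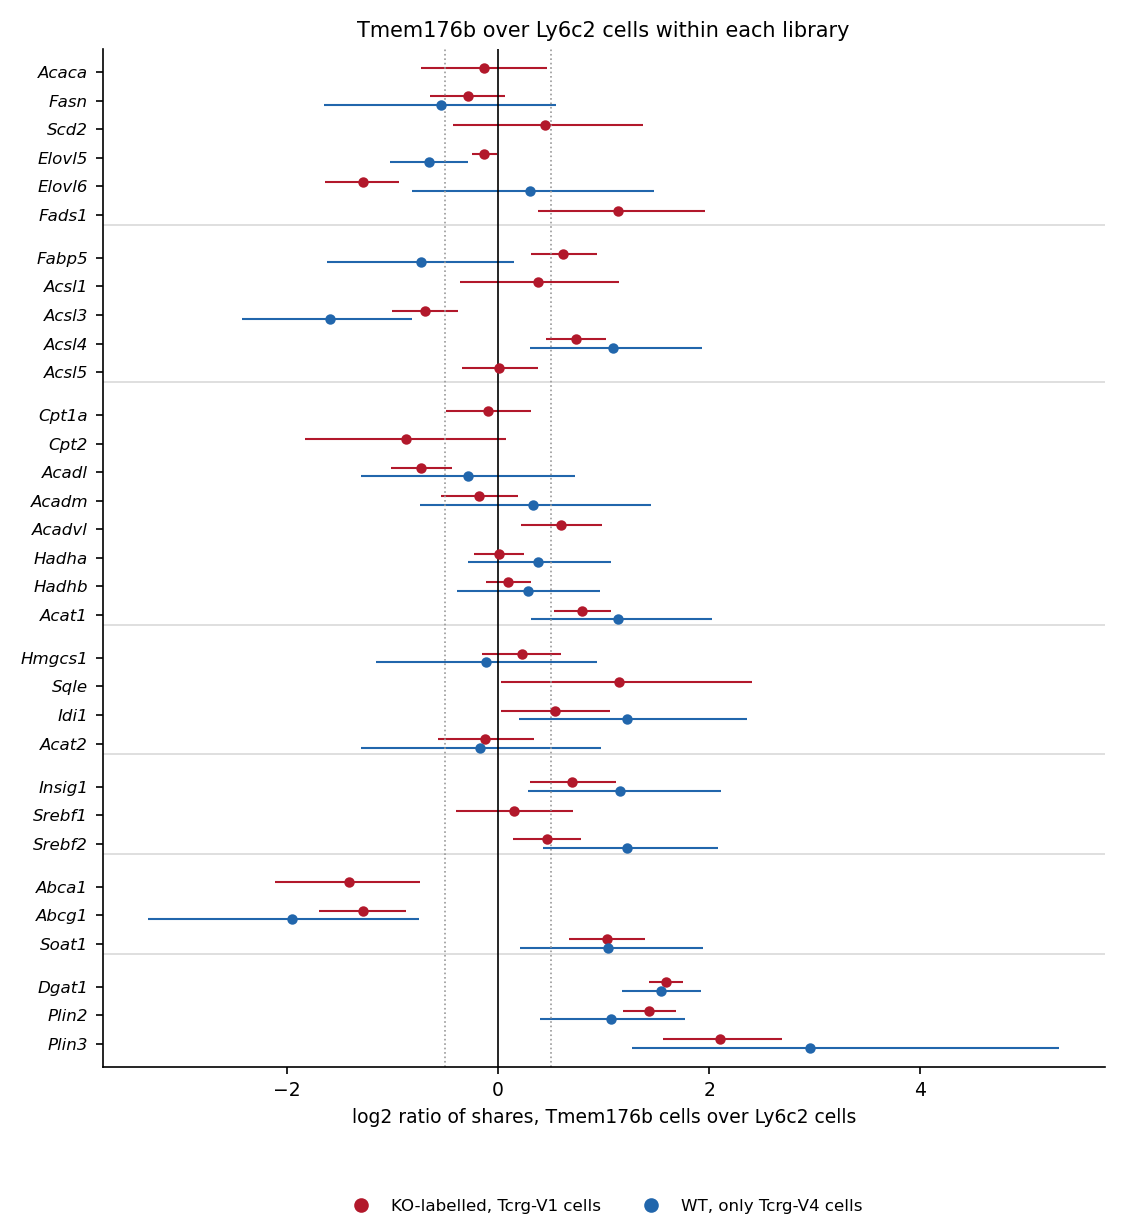
Log2 ratio of CPM, Tmem176b cells over Ly6c2 cells, for each member with at least 30 UMIs over both sums, ordered by role from fatty acid synthesis (top) to lipid droplet (bottom), in KO-labelled Tcrg-V1 cells (red) and WT Tcrg-V4 cells (blue); bars are 95% intervals of counting error and dotted lines mark 0.5 in either direction. Dgat1, Plin2 and Plin3 lie right of the line in both libraries, at 1.07 to 2.96, and Abcg1 and Acsl3 left of it.

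Between the Vγ groups the counts lay nearer to those of all genes. For Vγ4 over Vγ6, 27 members reached the minimum, 6 were higher and 5 lower (22.2% and 18.5%), against 15.1% and 14.5% of all genes. For KO Vγ1 over Vγ6, 32 reached it, 12 were higher and 5 lower (37.5% and 15.6%), against 24.9% and 15.7%. For KO Vγ1 over Vγ4, 32 reached it, 5 were higher and 4 lower (15.6% and 12.5%), against 16.3% and 11.7%. The 9 calls of the last are near the share of all genes. They came to 16 without cells that held markers of other cell types, where the share of all genes was not computed. The first pair of comparisons shares the Vγ6 cells and the last pair the KO Vγ1 cells. The Vγ groups differ in their mix of cells, since Tmem176b cells made up 86.3% of Vγ6, 38.5% of Vγ4 and 28.8% of KO Vγ1 cells. The αβ T cell genes stood at 674, 1014 and 1257 CPM in these groups, and their part was not tested.

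Tmem176b cells were therefore compared between the libraries on their own. For KO Vγ1 over Vγ6, 31 members reached the minimum, 10 were higher and 2 lower (32.3% and 6.45%), against 16.7% and 11.3% of all genes. Those higher were Scd2, Elovl6, Fads1, Fabp5, Acsl3, Acadvl, Sqle, Srebf1, Srebf2 and Abca1, and those lower Idi1 and Dgat1. For KO Vγ1 over Vγ4, 31 reached it, 8 were higher and 3 lower (25.8% and 9.68%), against 22.9% and 11.3% of all genes. Scd2, Elovl5, Fads1, Fabp5, Acsl5, Cpt1a, Acadvl and Abcg1 were higher and Idi1, Insig1 and Srebf2 lower. The 2 comparisons share the KO Vγ1 cells. As a group the fatty acid synthesis, elongation and desaturation genes passed the fold in KO Vγ1 Tmem176b cells over Vγ4 but not over Vγ6. The log2 ratios were 0.39 (0.25 to 0.53) over Vγ6 and 0.59 (0.35 to 0.83) over Vγ4, the latter 0.46 after thinning. Elovl5 alone gave most of that group's UMIs in each set of Tmem176b cells, so these sums largely follow it. The sterol synthesis genes lay at -0.34 (-0.58 to -0.09) and -0.36 (-0.72 to 0.02). Of these 4 genes only Idi1 was called lower, and Sqle was called higher over Vγ6. The median ratio of the 4 was 0.12 over Vγ6 and -0.07 over Vγ4, so these sums largely follow Idi1. The γδ17 genes were lower in KO Vγ1 Tmem176b cells, at 1554 CPM against 4082 in Vγ6 and 2136 in Vγ4 Tmem176b cells. So were stress genes, at 4977 CPM against 5645 and 7528. The part of either in the members' differences was not tested.

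**Figure D5:**
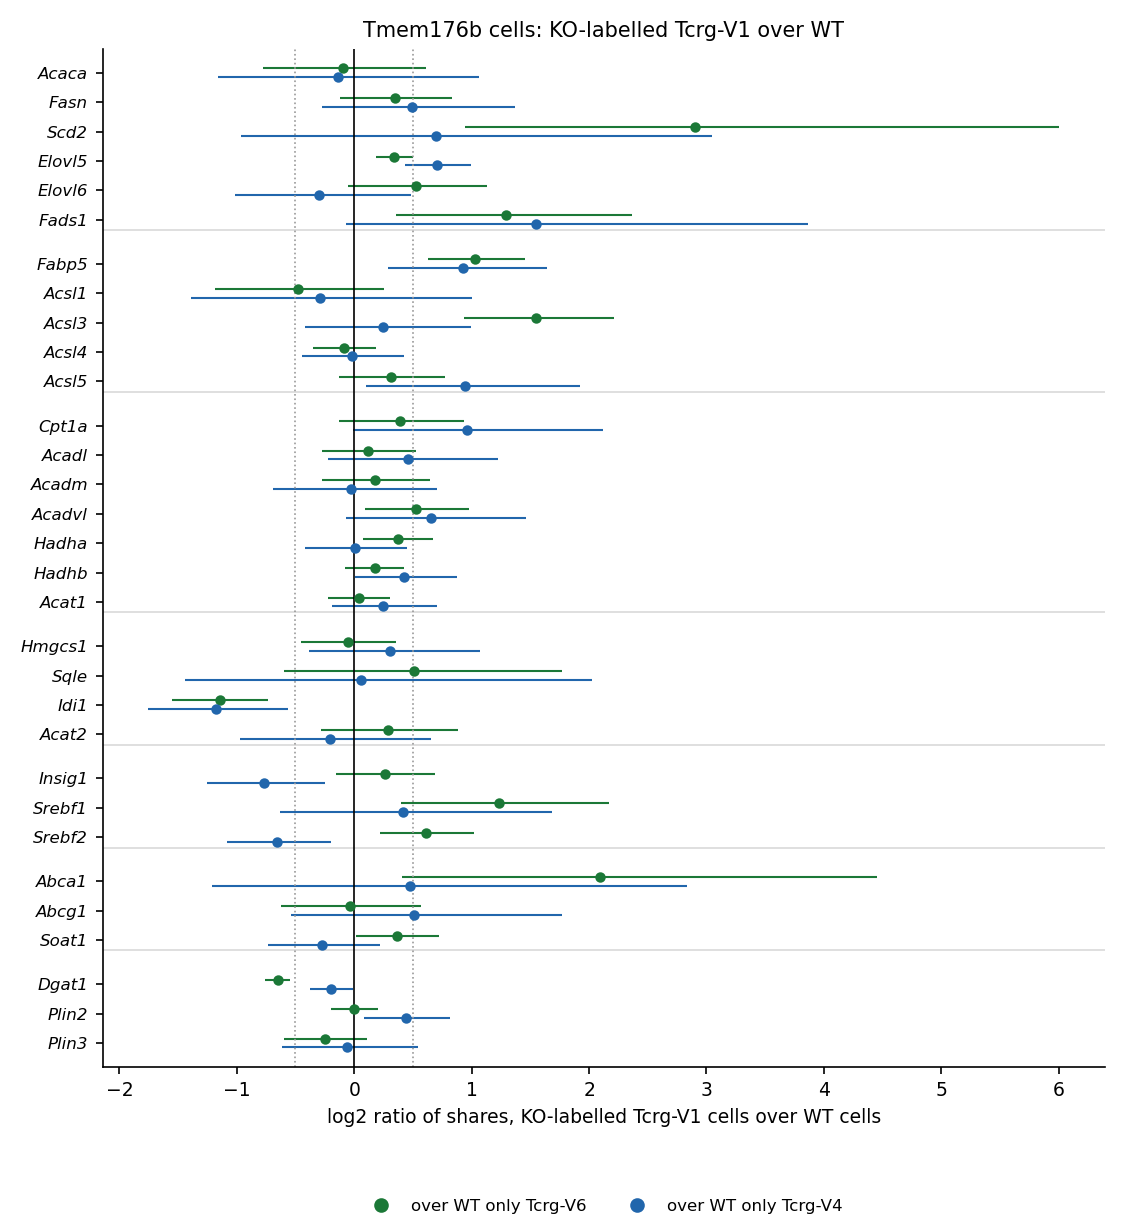
Log2 ratio of CPM within Tmem176b cells, KO-labelled Tcrg-V1 over WT Tcrg-V6 (green) and over WT Tcrg-V4 (blue), for each member with at least 30 UMIs over both sums, ordered by role as in the plot of the split; bars are 95% intervals of counting error and dotted lines mark 0.5 in either direction. Idi1 lies left of the line in both, at -1.14 and -1.18, and Scd2, Fads1, Fabp5 and Acadvl right of it in both.

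Genes of the same pathways that are not on the list were counted as well. Of 25 genes of sterol synthesis and uptake, 24 reached the minimum for KO Vγ1 over Vγ4, 1 was higher and 5 lower (4.17% and 20.8%, against 16.3% and 11.7% of all genes). For KO Vγ1 over Vγ6, 24 reached it, 5 were higher and 6 lower (20.8% and 25%, against 24.9% and 15.7%). Among those lower in both was Stard4, a sterol carrier protein, at 14.2 CPM in KO Vγ1 cells, against 31.8 in Vγ6 (-1.17, -1.58 to -0.73) and 25.3 in Vγ4 (-0.83, -1.33 to -0.30). The genes that were higher, 1 over Vγ4 and 5 over Vγ6, are not named here. In the KO Vγ1 split 21 of the 25 reached the minimum, 5 were higher and 2 lower in Tmem176b cells (23.8% and 9.52%, against 16.4% and 15.4%). Those higher included Mvk, the mevalonate kinase (1.57, 1.32 to 1.83), and Cyp51, the lanosterol demethylase (0.99, 0.60 to 1.38), and the 2 lower are not named here. In the Vγ4 split 8 reached it, 3 were higher and 0 lower (37.5% against 22.2% of all genes higher), among them Cyp51 (1.40, 0.48 to 2.41) and Mvk (0.99, 0.46 to 1.55).

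Of 15 genes of storage, lipolysis and uptake, 11 reached the minimum in the KO Vγ1 split, 3 were higher and 3 lower (27.3% each, against 16.4% and 15.4% of all genes). Cd36, a fatty acid translocase, had 35 UMIs or 8.64 CPM in Tmem176b and 3 UMIs or 1.12 CPM in Ly6c2 cells, and Pnpla2, the triglyceride lipase that acts against storage, was at 50.1 and 91.2 CPM (-0.86, -1.14 to -0.59). Pnpla2 had the same direction in the Vγ4 split, at 49.7 and 86.8 CPM (-0.80, -1.56 to -0.06). Dgat2, the other triglyceride-forming enzyme, was at 5.43 and 9.31 CPM in the KO Vγ1 split, with a ratio of -0.78 whose interval spanned 0 (-1.67 to 0.11), a gene chosen after its values were seen. Agpat4, an acyltransferase of an earlier step, was at 89.9 CPM in Vγ6 and 35.4 and 44.4 in Vγ4 and KO Vγ1 cells (-1.35, -1.81 to -0.90, and -1.02, -1.26 to -0.77). For Vγ4 over Vγ6, 8 genes of this list reached the minimum, 2 higher and 2 lower (25% each, against 15.1% and 14.5% of all genes). For KO Vγ1 over Vγ6, 13 reached it, 3 higher and 3 lower (23.1% each, against 24.9% and 15.7%). Of 16 further beta oxidation genes, 0 to 4 were higher and 0 to 2 lower in the 7 comparisons, or 0 to 33.3% and 0 to 16.7% of those that reached the minimum. Of 9 further fatty acid synthesis genes, 1 to 3 were higher and 0 to 1 lower, or 14.3% to 42.9% and 0 to 14.3%, where 15.1% to 24.9% of all genes were higher and 11.3% to 16.7% lower.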

How the data were processed

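Per the file headers and the submitters' processing notes, the authors made the deposited tables of UMI counts per gene and cell with Cell Ranger (7.0.0 in the header, 7.0 in the notes) on mm10, which is GRCm38. The labels name a 3′ kit, the methods an immune-receptor kit and an earlier Cell Ranger release, and no source used here gives the setting for strand or introns. Of the barcodes, those with more than 200 and fewer than 4000 genes and under 10% mitochondrial UMIs were kept, 2505 WT and 6634 KO-labelled cells with a median of 3288 and 3521 UMIs. No doublet caller was run. The members and lists were chosen with earlier results of these data known.

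For each group the UMIs of all its cells were added and divided by their total. Poisson intervals of levels, conditional binomial (Clopper-Pearson) intervals of ratios and binomial intervals of shares are exact and 95%, and cover counting error only. UMIs per cell fix the precision, so sums under 30 UMIs gave no call. Shares of cells with a UMI were read after each cell had been thinned to 2000 UMIs, so that the 380 WT and 828 KO-labelled cells with fewer were not used there. Cells with at least 5 UMIs of myeloid or B cell genes were read as background. The alternative without markers of other cell types dropped cells with at least 2 UMIs of the myeloid, B, epithelial, endothelial, fibroblast and red cell genes. It kept 302 of 520 Vγ6, 288 of 410 Vγ4 and 1820 of 2880 KO Vγ1 cells. In Vγ6 cells with neither Tmem176b nor Ly6c2 all 33 myeloid UMIs were of Cst3, so dropped cells need not be of another type. The 5 members with most UMIs, and every member past the fold in at least 1 of 7 comparisons, were named, and other pathway genes by their 3 largest ratios in each direction, and not every gene that the rule names is reported here. Coordinates are from GENCODE M21, which held 32235 of the 32285 gene IDs, and promoters from RefSeq.

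The scripts used Python 3.11.15 with numpy 2.4.6, scipy 1.17.1, pandas 2.3.3 and matplotlib 3.10.9, and were tested on simulated data. Alternatives covered the cell filter, the Tcrg-V rule, other cell types, depth, scaling and the fold limit.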

Additional observations from a re-analysis of the deposited data

Results flagged for a closer look

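Fabp5 went in opposite directions in the 2 splits. Its log2 ratio of Tmem176b over Ly6c2 cells was 0.62 in KO Vγ1 cells and -0.73 in Vγ4 cells, and the interval of the latter reached above 0. With a single library on each side the difference between the splits was not tested.

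Some cells carried a variable gene that their sort or genotype should lack. In the WT library, sorted without Vγ1, 3.35% of cells had Tcrg-V1 as their only Tcrg variable gene, and in the KO-labelled library 5.49% of cells had only Tcrg-V4. Neither set of cells entered a comparison of the report. KO-labelled cells that held Tcrg-V4 together with Tcrg-V1 did enter, as KO Vγ1 cells.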

How the results depend on the processing

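No paired analysis was possible because both groups hold a single library. Of 92 ratios of named genes past the fold, 91 kept their direction and 59 stayed past the fold under every alternative to the choice of cells and the scaling that gave them a value, which was 12 alternatives for 73 ratios and 7 to 11 for the others. Abcg1 for Vγ4 over Vγ6 reversed, to -0.041, without cells that held markers of other cell types. All 11 role group ratios past the fold kept their direction and 6 stayed past it. The cause of these shifts was not tested. Depth limits members such as Scd2, Cpt2, Fads1 and Sqle, and Scd1, Fads2, Lpl and Fabp4 could not be compared.

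The summed share depended most on Dgat1, left out as an alternative chosen after seeing the data. Without Dgat1 the log2 ratios were -0.00071 for Vγ4 over Vγ6, 0.17 for KO Vγ1 over Vγ6 and 0.17 for KO Vγ1 over Vγ4, then 0.17 and 0.15 for the KO Vγ1 and Vγ4 splits, and 0.24 and 0.21 for KO Vγ1 Tmem176b cells over those of Vγ6 and Vγ4. Without Dgat1 and Elovl5, also chosen after seeing the data, they were 0.0090, 0.13, 0.12, 0.25 for the KO Vγ1 split and 0.21 for Tmem176b cells over Vγ6. Without Elovl5 they were -0.28 for KO Vγ1 over Vγ6, -0.014 for KO Vγ1 over Vγ4, and 0.48 and 0.58 for the splits. With ribosomal, mitochondrial and T cell receptor genes out of the total they were -0.16 for Vγ4 and -0.11 for KO Vγ1 over Vγ6, and 0.30 for the KO Vγ1 split. Scaling by the median ratio gave -0.28 for KO Vγ1 over Vγ6 and -0.025 over Vγ4. With at least 2 UMIs of the Tcrg-V gene KO Vγ1 over Vγ6 was -0.14. Without cells holding markers of other cell types it was -0.25, and the splits were 0.43 and 0.55.

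With a log2 ratio of at least 1 asked, 3 members passed for Vγ4 over Vγ6 instead of 11, 9 for KO Vγ1 over Vγ6 instead of 17, 2 for KO Vγ1 over Vγ4 instead of 9, 9 in the KO Vγ1 split instead of 18, and 7 and 2 for Tmem176b cells over those of Vγ6 and Vγ4 instead of 12 and 11. Without cells holding markers of other cell types 16 passed for KO Vγ1 over Vγ4. In the Vγ4 split 14 passed, against 4 with at least 2 UMIs of Tcrg-V4, 5 after thinning and 2 with at least 100 UMIs asked. That minimum left 7 for Tmem176b cells over those of Vγ6. The share of all genes under these other limits was not computed, and a higher minimum or fewer cells can leave fewer members to count.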
